A study of Mus musculus with 6 samples.

Results

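The collagen genes described here are the 43 genes, of 29781 listed in any library, whose mouse symbol is Col, a number, a and a number, such as Col1a1. They were measured by single-cell RNA sequencing in pancreatic tumours, where each carries the code for an alpha chain of a collagen. Most collagens are secreted proteins, and some are transmembrane proteins. Their chains wind around each other into a rope-like helix. The fibrillar types (I, II, III, V, XI, XXIV and XXVII) build the fibres of scar and stroma. Type IV forms the sheet-like network of the basement membrane under epithelium and around vessels, and type VI forms beaded filaments in the matrix between cells and fibres. The FACITs (such as XII and XVI) sit on fibril surfaces, the multiplexins XV and XVIII lie in or next to basement membranes, type VIII forms hexagonal lattices around vessels, and type VII anchors epithelium. Pancreatic cancer is known for a dense collagen stroma, laid down largely by fibroblasts.

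The groups were tumours of 3 mice treated with the antibody against mouse VSIG4 numbered 44 in the labels, and tumours of 3 mice treated with IgG. All 6 mice were C57BL/6J with a wild-type genotype per the labels, and all carried orthotopic tumours grown from the KPC cell line, a mouse pancreatic cancer line. Tumours were collected at day 11 after inoculation. Antibody doses and treatment times were not given. All tumours thus come from 1 injected line and 1 time point. Each mouse gave 1 library, which is the replicate.

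The libraries held 26606234 to 47221033 UMIs (unique molecular identifiers, each counting 1 captured RNA molecule) in 6518 to 9566 cell barcodes, and 47603 of 47794 barcodes were kept. Levels are given as CPM, the UMIs of a gene per 1000000 UMIs of all cells of a class in a library. Cell classes were named from marker genes that held no collagen, and the collagen genes were left out of the clustering. The classes used most here were fibroblasts (898 cells), endothelial cells (449), tumour/epithelial cells (2646) and T cells (6106). The defining markers were present: none of the 7 fibroblast markers was at 0 in fibroblasts, nor any of the 9 endothelial or 7 epithelial markers in its own class. The libraries differed in cells rich in RNA of long genes, as nuclei are: such cells made up 0.337%, 0.216% and 5.28% of anti-VSIG4 1, 2 and 3, and 0.363%, 15.8% and 40.6% of IgG 1, 2 and 3. Pairs of libraries shared 1018 to 1827 cell names, with 0 shared names having equal UMI and gene totals.

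Sequences at the starts of 3 loci are shown because these loci hold chains that the results turn on: the fibrillar genes Col1a2 and Col3a1, and the type IV pair Col4a1 and Col4a2. They are RefSeq sequences on GRCm38.p6. For Col1a2 and Col3a1 the 120 bases before the start are printed on the plus strand, with CCAAT or TATAAA on either strand in capitals.
Col1a2, chr6:4505498-4505617: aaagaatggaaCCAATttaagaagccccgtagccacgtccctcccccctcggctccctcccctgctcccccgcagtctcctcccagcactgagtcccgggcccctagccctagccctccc
Col3a1, chr1:45311418-45311537: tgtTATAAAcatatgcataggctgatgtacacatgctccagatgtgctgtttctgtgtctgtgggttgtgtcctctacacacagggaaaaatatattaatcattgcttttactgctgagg
Col4a1 and Col4a2, chr8:11312801-11312830: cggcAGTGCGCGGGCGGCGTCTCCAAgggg
The CCAAT of Col1a2 began 109 bases before its start. Of 35 members found in the table, 6 held CCAAT or its reverse ATTGG in these 120 bases and 3 held TATAAA or TTTATA. Of 32851 such windows over all genes, 21.3% held the first motif and 6.34% the second. Col4a1 and Col4a2 lie head to head on opposite strands. Their annotated starts, 11312826 on the minus strand for Col4a1 and 11312805 on the plus strand for Col4a2, enclose 22 bases that belong to both transcripts, printed in capitals. Reads confined to that overlap could not be told apart if counting ignored strand.

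Fibroblasts held most of the family. Of the 43 members, 23 had their highest mean CPM in fibroblasts, 7 in endothelial cells, 1 in tumour/epithelial cells and 12 in another class. Among the 18 members with at least 1000 UMIs in all cells the numbers were 12, 4, 1 and 1. Another 11 members had fewer than 100 UMIs in all, and 38 of the 43 were listed with a UMI in all 6 libraries. Collagen RNA made up 2.39% of all fibroblast UMIs, 0.516% of endothelial UMIs, 0.0747% of tumour/epithelial UMIs and 0.0284% of T cell UMIs. These class levels describe cells grouped from the same data and carry no test.

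**Figure D1:**
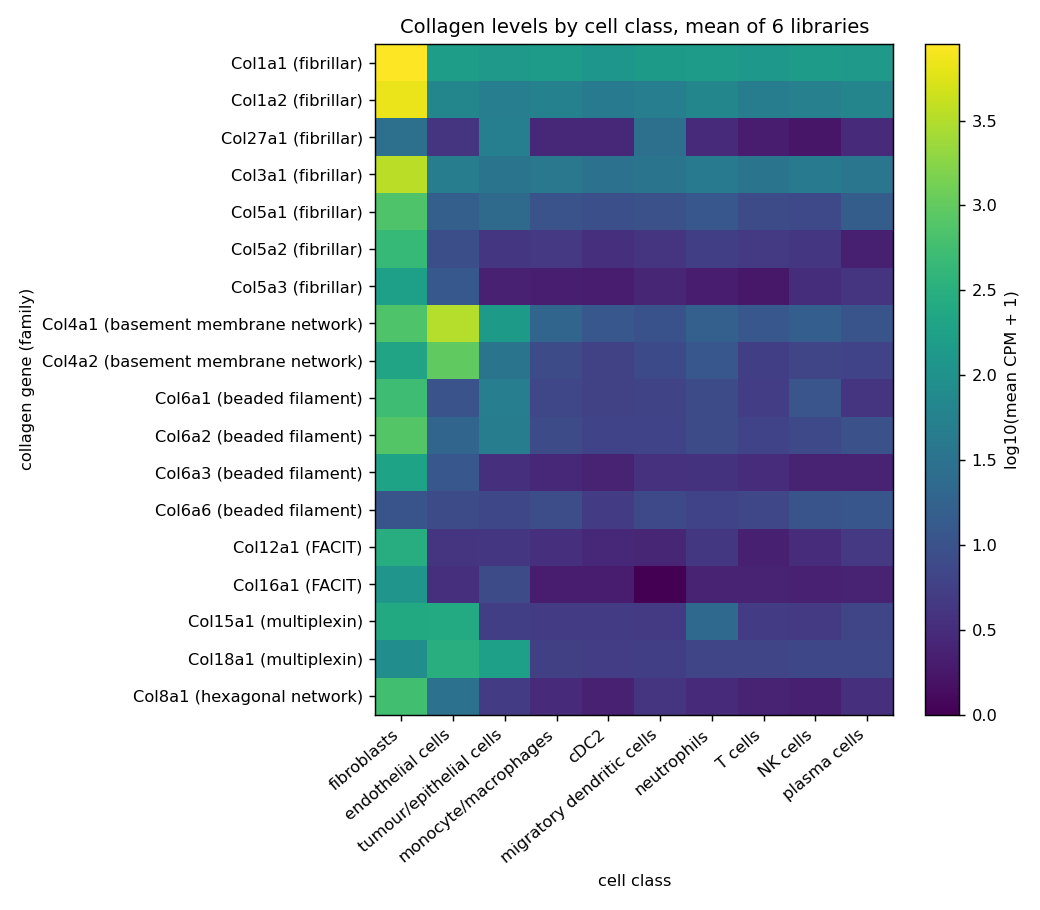
Mean CPM over 6 libraries of the collagen genes (rows, with their family) in each cell class (columns), on a log colour scale. Fibrillar genes are brightest in fibroblasts, Col4a1 and Col4a2 in endothelial cells, and Col27a1 in tumour/epithelial cells.

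The main fibrillar chains were fibroblast RNAs. In fibroblasts Col1a1, the alpha 1 chain of type I collagen, was at 10609, 10199.8 and 9924 CPM in anti-VSIG4 tumours and at 8998, 6080.0 and 7852 CPM in IgG tumours. Col1a2, the alpha 2 chain of type I, was at 6830.1, 7677 and 8717 CPM in anti-VSIG4 and 6704, 4790.4 and 6341 CPM in IgG tumours. For both chains every anti-VSIG4 library lay above every IgG library, by a small margin for Col1a2. Col3a1, the chain of type III collagen that shares fibrils with type I, was at 3264, 2842 and 4277 CPM in anti-VSIG4 and 3789, 2915 and 3845 CPM in IgG tumours, and the groups overlapped. Col1a1, averaging 8944 CPM in fibroblasts, was 54.1-fold higher there than in the next class.

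The type V chains, which start and narrow type I fibrils, had lower levels with the same class. Col5a1 was at 729.9, 878 and 712 CPM in fibroblasts of anti-VSIG4 and 693, 595 and 708 CPM in those of IgG tumours. Col5a2 was at 606, 374 and 543 CPM in anti-VSIG4 and 361, 318 and 441 CPM in IgG fibroblasts. Col5a3 was at 131, 172 and 187 CPM in anti-VSIG4 and 186, 138 and 189 CPM in IgG fibroblasts. The groups met closely but did not overlap for Col5a1, and overlapped for Col5a2 and Col5a3. Col11a1, a fibrillar chain often noted in tumour stroma, was low, at 16.0 to 37.1 CPM in fibroblasts of the 6 libraries, and 70.9% of its 299 UMIs were in that class.

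Of the type VI chains, Col6a1 was at 370.2, 522 and 598 CPM in anti-VSIG4 and 449.7, 494 and 690.2 CPM in IgG fibroblasts. Col6a2 was at 556, 775 and 884 CPM in anti-VSIG4 and 741, 689 and 994 CPM in IgG fibroblasts. Col6a3 was at 165, 168 and 270.2 CPM in anti-VSIG4 and 207, 119 and 229 CPM in IgG fibroblasts. All 3 chains overlapped between the groups, with IgG 3 or anti-VSIG4 3 highest. Among chains that decorate fibrils, Col12a1 was at 396, 213 and 400.0 CPM in anti-VSIG4 and 249, 233 and 260.4 CPM in IgG fibroblasts. Col16a1 varied least, from 106 to 125 CPM over the 6 libraries. Col8a1, a hexagonal-network chain, was at 624, 448 and 912 CPM in anti-VSIG4 and 644, 464 and 295 CPM in IgG fibroblasts, with anti-VSIG4 3 highest and IgG 3 lowest.

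Low Col1a1 counts occurred in every class, so a T cell level was set beside each value. T cells are not known to make type I collagen, and they held Col1a1 at 106, 286 and 54.0 CPM in anti-VSIG4 and 162, 95.7 and 49.1 CPM in IgG tumours. Endothelial cells, at 133, 401 and 82.4 CPM in anti-VSIG4 and 219.7, 98.5 and 56.7 CPM in IgG tumours, and tumour/epithelial cells, at 119, 329 and 63.7 CPM in anti-VSIG4 and 178, 75 and 52.8 CPM in IgG tumours, had Col1a1 near that level. In endothelial cells, tumour/epithelial cells, monocyte/macrophages, type 2 conventional dendritic cells and T cells the 6 libraries ranked in an identical order for Col1a1, from anti-VSIG4 2 down to IgG 3. The order was different in fibroblasts, and also in migratory dendritic cells, neutrophils, NK cells and plasma cells, which had anti-VSIG4 2 highest and IgG 1 next as T cells did but differed among the other libraries. In fibroblasts anti-VSIG4 1 was highest and IgG 2 lowest.

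When each cell was thinned to 1000 UMIs, 89.3% of fibroblasts, 14.9% of endothelial cells, 12.7% of tumour/epithelial cells and 14.0% of T cells held a Col1a1 UMI. Unthinned shares were 96.2%, 53.2%, 55.5% and 37.4%, at median depths of 4818.5, 5244, 6342 and 3032 UMIs per cell. The thinned share in tumour/epithelial cells was below that in T cells, while the CPM was above it in 5 of 6 libraries, so no order is read between these classes. The tumour/epithelial cell with the most Col1a1 held 178 UMIs, against 20 UMIs in the T cell with the most. Where the Col1a1 UMIs outside fibroblasts came from was not tested. The ratio of Col1a2 to Col1a1 UMIs was 0.764 in fibroblasts (0.644 to 0.878 over libraries), against 0.382 in endothelial cells, 0.370 in tumour/epithelial cells and 0.358 in T cells. Over T cells, neutrophils and monocyte/macrophages together it was 0.378 (0.348 to 0.569). What lowers the ratio outside fibroblasts was not tested.

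**Figure D2:**
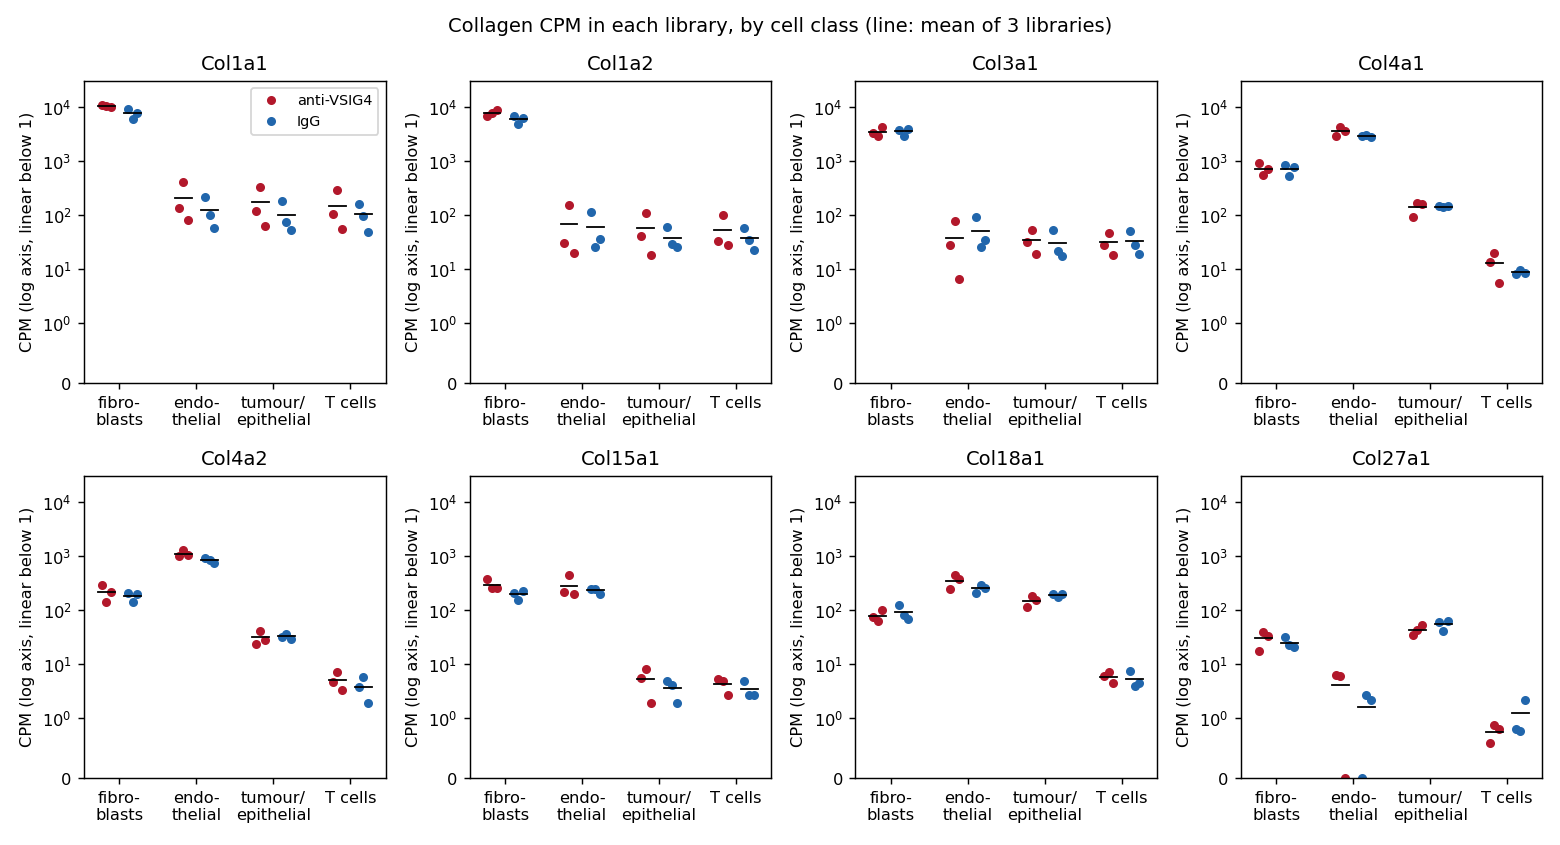
CPM of 8 collagen genes in each library (dots, on an axis linear to 1 and logarithmic above) in fibroblasts, endothelial cells, tumour/epithelial cells and T cells, with anti-VSIG4 left of IgG and a line at each mean of 3 libraries. Col1a1 is near the T cell level in endothelial and tumour/epithelial cells, though above it in endothelial cells of each library. Col4a1 and Col18a1 lie farther above the T cell level in both classes.

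The 2 main basement-membrane chains, Col4a1 and Col4a2, were highest in endothelial cells. Col4a1 was at 2897, 4299 and 3644 CPM in endothelial cells of anti-VSIG4 tumours and at 2919, 3025 and 2766 CPM in those of IgG tumours. Col4a2, its partner in the common type IV network, was at 991, 1313 and 1034 CPM in anti-VSIG4 and 940.3, 834 and 756 CPM in IgG endothelial cells. The groups overlapped for Col4a1 and did not for Col4a2. Fibroblasts came next for both: Col4a1 was at 905, 545 and 702 CPM in anti-VSIG4 and 832, 536 and 779.5 CPM in IgG fibroblasts. Col4a2 was at 298, 140.5 and 216 CPM in anti-VSIG4 and 209, 142 and 199 CPM in IgG fibroblasts. The ratio of Col4a2 to Col4a1 UMIs was 0.294 in endothelial cells, 0.272 in fibroblasts and 0.227 in tumour/epithelial cells. T cells held Col4a1 at 5.51 to 19.8 CPM, and 82.4% of endothelial cells but 1.29% of T cells held a Col4a1 UMI after thinning. The other type IV chains were scarce: Col4a3, Col4a4, Col4a5 and Col4a6 had 47, 52, 271 and 81 UMIs in all cells. They were not highest in endothelial cells. Col4a5 and Col4a6 were highest in fibroblasts in all 6 libraries, averaging 12.8 and 3.91 CPM there. Col4a3 and Col4a4, both under 1 CPM, had their highest mean in NK cells and neutrophils.

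The multiplexins differed from each other in class. Col18a1, the precursor of endostatin, was at 242, 443 and 371 CPM in endothelial cells of anti-VSIG4 and 206, 289 and 261 CPM in those of IgG tumours. Col15a1, its relative, was at 219, 438 and 199.5 CPM in anti-VSIG4 and 247, 247 and 200.2 CPM in IgG endothelial cells. Both overlapped between groups, with anti-VSIG4 2 highest. Fibroblasts held Col15a1 at a like level, 375, 257 and 255 CPM in anti-VSIG4 and 207, 153 and 228 CPM in IgG tumours, and endothelial cells were above fibroblasts in 3 of 6 libraries. Col18a1 averaged 84.9 ± 23.8 CPM in fibroblasts (SD, n = 6). Col13a1, a transmembrane collagen, was found mainly in endothelial cells, where it averaged 54.8 CPM, against 0.659 CPM in fibroblasts, the next class. Endothelial cells held 70.3% of its 313 UMIs.

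In tumour/epithelial cells 13 members exceeded the T cell level in all 6 libraries, with 25 in fibroblasts and 6 in endothelial cells. These counts depend on depth and are not compared between classes. Tumour/epithelial cells summed to 3033622 to 14026691 UMIs a library and endothelial cells to 466030 to 1117274. The share of all genes above T cells was not counted. Members averaging at least 100 CPM numbered 3, 15 and 5 in the same order of classes. Col18a1 was at 115, 179 and 155 CPM in tumour/epithelial cells of anti-VSIG4 and 200.4, 175 and 199.9 CPM in those of IgG tumours. Col4a1 was at 90, 166 and 160.3 CPM in anti-VSIG4 and 144, 138 and 146 CPM in IgG tumour/epithelial cells. The groups overlapped for both, with anti-VSIG4 1 lowest. Tumour/epithelial cells were a large class, and they held 70.3% of all Col18a1 UMIs although the CPM was 1.77-fold higher in endothelial cells. Col27a1, a fibrillar collagen best known from cartilage, was the member that peaked in this class, at 34.0, 43.2 and 52.4 CPM in anti-VSIG4 and 59.7, 41.8 and 62.8 CPM in IgG tumours, with 74.9% of its UMIs there. Col7a1, the anchoring-fibril chain, was at 6.07 to 9.23 CPM in this class in the 6 libraries, against 21.1 CPM on average in fibroblasts, and tumour/epithelial cells held 47.4% of its UMIs. The ratio of Col5a2 to Col5a1 UMIs was 0.126 in tumour/epithelial cells and 0.584 in fibroblasts, and that of Col6a2 to Col6a1 was 0.941 and 1.48.

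Summed by family, the classes had different collagen make-ups. Fibrillar genes gave 84.4% ± 1.49 of collagen UMIs in fibroblasts, 5.53% ± 3.25 in endothelial cells and 36.3% ± 11.4 in tumour/epithelial cells (SD, n = 6 libraries). Type IV genes gave 3.84% ± 0.716, 81.1% ± 3.75 and 23.1% ± 4.05 in the same order of classes. Multiplexins gave 10.6% ± 0.961 in endothelial cells and 23.0% ± 3.60 in tumour/epithelial cells. In T cells fibrillar genes gave 80.9% of collagen UMIs. Without Col1a1, Col1a2 and Col3a1, which held 22.6% of tumour/epithelial and 78.7% of fibroblast collagen UMIs, the fibrillar share of the rest in tumour/epithelial cells was 13.5%, beside 30.2% type IV, 31.2% multiplexin and 20.3% beaded-filament genes. The fibrillar share per library in fibroblasts was 84.9%, 86.9% and 84.2% in anti-VSIG4 and 84.3%, 82.7% and 83.1% in IgG tumours, and the groups overlapped.

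**Figure D3:**
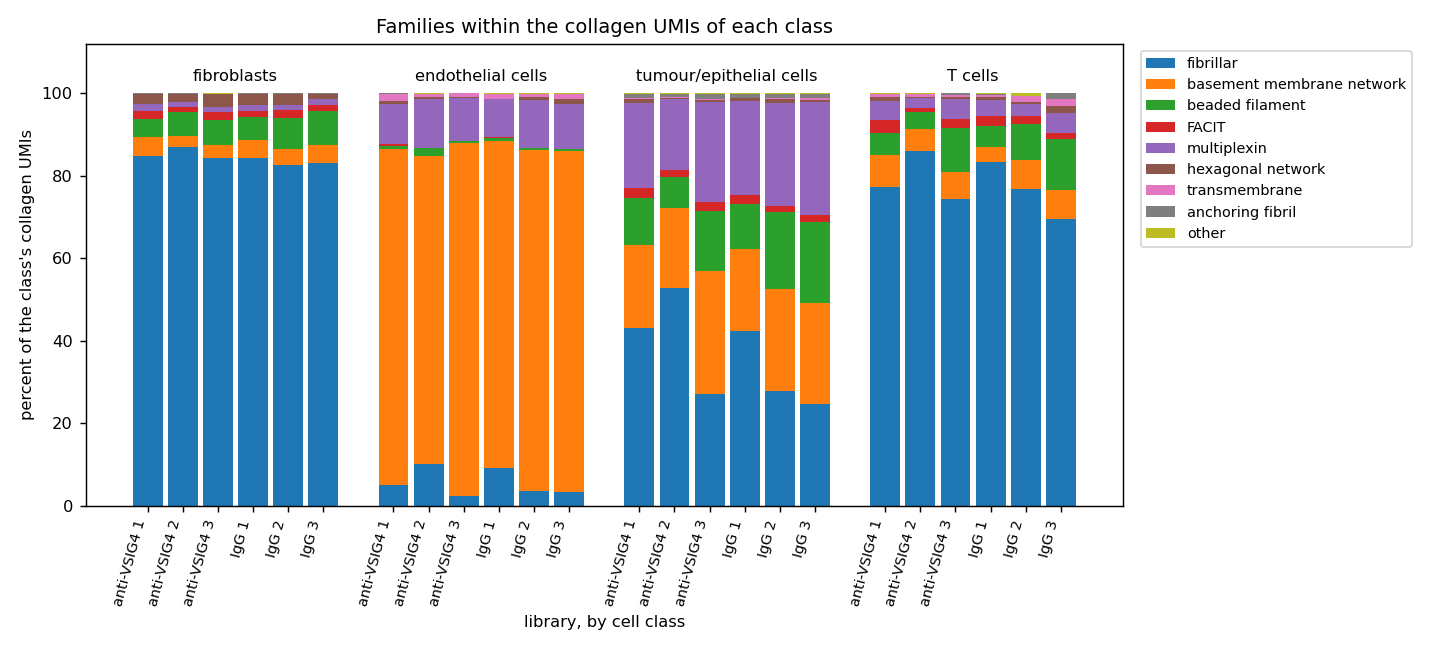
Percent of collagen UMIs in each family, by cell class and library, with anti-VSIG4 libraries left of IgG libraries. Fibrillar genes fill most of each fibroblast bar and type IV genes most of each endothelial bar, while tumour/epithelial bars are mixed and vary between libraries.

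The fibroblast class was mixed. Clustering its cells again without collagen genes, with settings chosen after the data were seen, gave 7 sub-clusters. Sub-cluster 1 (337 cells; Clec3b, Dpt and Pi16) was universal-fibroblast-like, with 3 of 7 universal markers raised. Its universal markers summed to 1854 CPM and its inflammatory markers, such as Il6 and Cxcl12, to 3809 CPM. Both sums were the highest of any sub-cluster, so the name does not set it apart from an inflammatory state. Sub-cluster 2 (242 cells; Lgals7 and Upk3b) was mesothelial-like. Sub-clusters 3 (123 cells; Slpi, Ankrd1 and Car9) and 4 (102 cells; Serpine2, Igfbp3 and Lrrc15) stayed unnamed. Sub-cluster 5 (40 cells; Rgs5, Cspg4 and Notch3) was pericyte- or smooth-muscle-like, and 2 others, of 36 and 18 cells, came from IgG 3 alone. Their leading genes included Trbc1 and Cd8b1 in the first and Krt7, Krt19 and Krt8 in the second. They stayed in the values and treatment fits of the whole fibroblast class and are not described further.

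Of the 20 members at 20 CPM or more in fibroblasts, 13 were highest in sub-cluster 4, 5 in sub-cluster 5 and 2 in sub-cluster 1, by CPM pooled over libraries. Sub-cluster 4 held Col12a1 at 999 CPM, against 116 CPM in the mesothelial-like cells that had the least. Its Col8a1 was at 2264 CPM, against 80.0 CPM in the mesothelial-like cells. In each library sub-cluster 4 had Col8a1 between 1663 and 2693 CPM and the mesothelial-like cells between 0 and 228 CPM, so the ranges were far apart. Col15a1 was at 585 CPM and Col7a1 at 123 CPM in sub-cluster 4, against 60.2 CPM of Col15a1 in the pericyte-like cells and 3.20 CPM of Col7a1 in the mesothelial-like cells.

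Type I collagen was present in all of them. Col1a1 was at 12745 CPM in sub-cluster 4, 11090.5 in sub-cluster 1, 7375 in sub-cluster 3, 5219 in the mesothelial-like and 1740.1 in the pericyte-like cells. Sub-clusters 4 and 1 overlapped over libraries (10411 to 16783 and 8316 to 14382 CPM), so their order is not beyond the spread. Col3a1 was highest in the universal-like cells, at 5061 CPM pooled and 3685 to 7123 CPM over libraries, and lowest in the pericyte-like cells, at 473 CPM. The pericyte-like cells had the highest CPM of Col4a1, at 3330 CPM against 157 CPM in sub-cluster 3, and of Col18a1, at 966 CPM against 12 CPM. Being few, they held 1217 Col4a1 UMIs, against 2601 in sub-cluster 1 and 1348 in sub-cluster 4, and they held 0 UMIs of Col4a5 and Col4a6. In the 5 libraries with at least 5 pericyte-like cells, Col4a1 ranged there from 2504 to 4007 CPM, which spans the endothelial level. Col5a3 and Col6a3 were also highest in these cells, at 353 and 605 CPM.

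**Figure D4:**
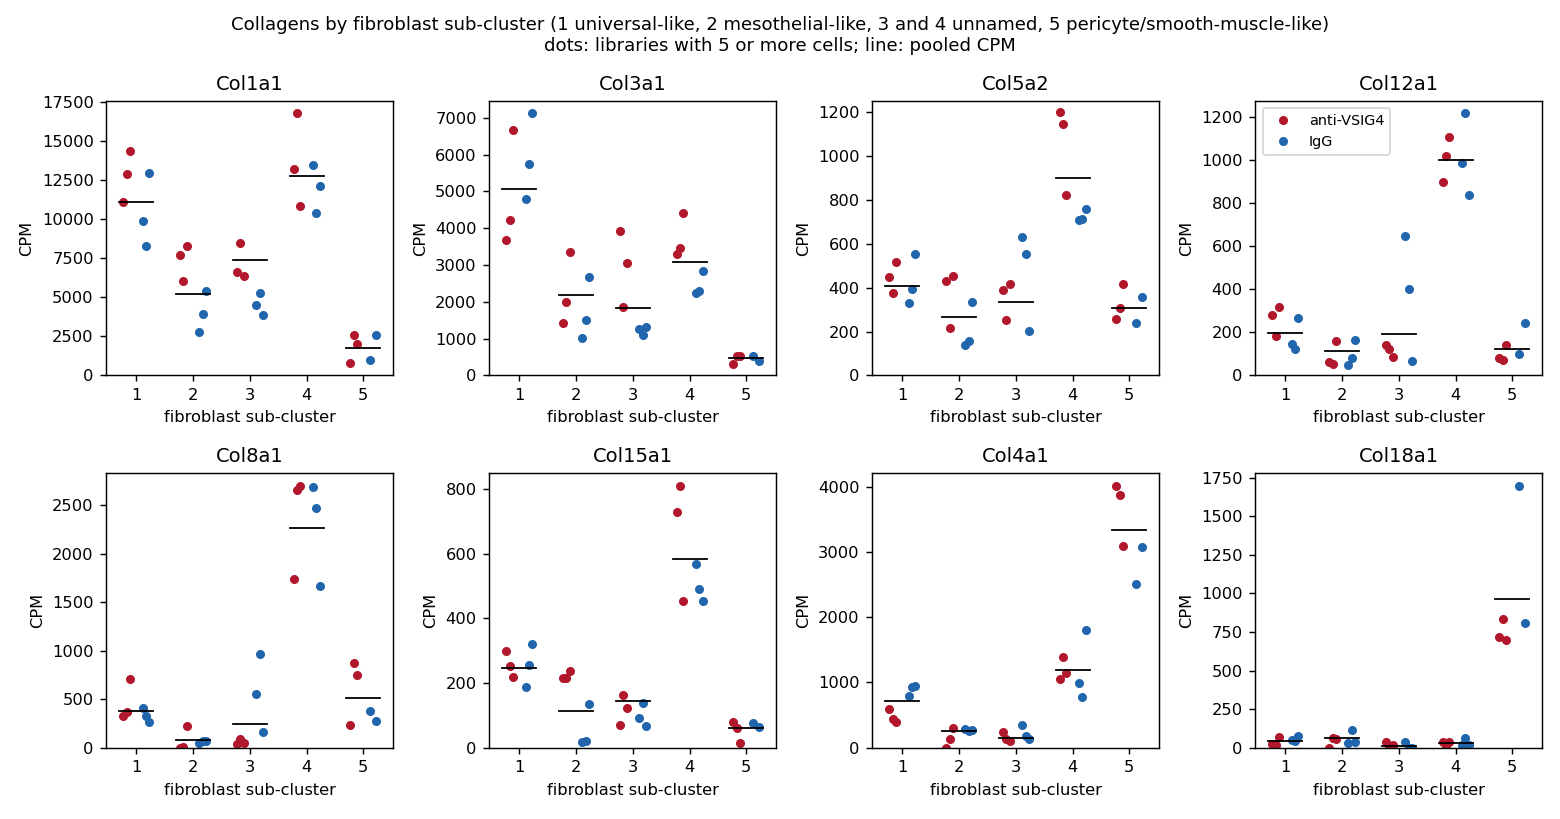
CPM of 8 collagen genes in fibroblast sub-clusters 1 to 5 (linear axes from 0), with a dot for each library holding 5 or more cells and anti-VSIG4 dots left of IgG dots. Col8a1, Col12a1 and Col15a1 are highest in sub-cluster 4, Col3a1 in sub-cluster 1, and Col4a1 and Col18a1 in sub-cluster 5.

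Endothelial cells were divided in the same way into 5 sub-clusters. One was lymphatic-like (46 cells; Prox1, Mmrn1 and Lyve1) and one proliferating-like (23 cells; Plk1, Ube2c and Tk1), and the others are given by their leading genes. Col4a1 was at 4352 CPM in a sub-cluster led by Gja4 and Sema3g (72 cells), 3771 CPM in one led by Mgp, Rgs5 and Apln (178 cells), 2089 CPM in one led by Ackr1 and haemoglobin genes (130 cells), 1873 CPM in proliferating-like cells and 1826 CPM in lymphatic-like cells. Col13a1 was at 113 CPM in the Gja4 cells and 2.90 CPM in lymphatic-like cells. Col15a1 was at 304 CPM in the Gja4 cells and 5.81 CPM in lymphatic-like cells. Lymphatic-like cells were thus lower than the Gja4 cells for all 3, from few cells and pooled counts. By the fixed markers the Gja4 and Ackr1 sub-clusters scored best as erythroid cells, and Hbb-bs was among the leading genes of both. The Mgp sub-cluster scored best as contractile. Rgs5, a pericyte marker, was among the leading genes of the Mgp sub-cluster, and the share of pericyte RNA in that sub-cluster was not tested.

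Whether antibody against VSIG4 changed collagen RNA was tested in fibroblasts, endothelial cells, tumour/epithelial cells, monocyte/macrophages and the sum of all cells, by edgeR's quasi-likelihood test on UMIs summed per library with Benjamini-Hochberg adjustment over all genes. No collagen gene passed an adjusted p of 0.05 in any of the 5. The call was 0 of 23 members tested in fibroblasts (0% of 9611 genes called), 0 of 9 in endothelial cells (0.0152% of 6591), 0 of 20 in tumour/epithelial cells (0% of 12008), 0 of 21 in monocyte/macrophages (0% of 12904) and 0 of 34 in the sum of all cells (0% of 17976). DESeq2 called 0 members in each of the 5, while it called 40, 5, 5, 23 and 13 genes (0.538%, 0.0275%, 0.0207%, 0.113% and 0.0672% of those tested). An unadjusted p under 0.05 was reached by 2 members in fibroblasts, 0 in endothelial cells, 3 in tumour/epithelial cells, 1 in monocyte/macrophages and 2 in the sum of all cells, beside 6.17%, 4.87%, 3.93%, 4.08% and 7.68% of all genes. Members without enough UMIs to be tested numbered 20 in fibroblasts, 34 in endothelial cells and 23 in tumour/epithelial cells. On counts simulated for fibroblasts the test found 18% of 2-fold and 78% of 4-fold changes, so a change of 2-fold would often be missed. There 200 of 9611 genes were changed, and the test also called 14 genes that were not.

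In fibroblasts 14 of 23 tested members had a log2 change above 0, with a median of 0.09, against 0.01 over all genes. The smallest p was that of Col8a2, a partner of Col8a1, at 32.5, 31.6 and 32.8 CPM in anti-VSIG4 and 21.3, 15.4 and 19.9 CPM in IgG fibroblasts. Its log2 change was 0.74 ± 0.26 (SE; edgeR adjusted p = 0.707). All 3 anti-VSIG4 libraries lay above all 3 IgG libraries. Col15a1 had a log2 change of 0.56 ± 0.23 (edgeR adjusted p = 0.766), Col1a1 0.39 ± 0.20 (0.862), Col5a2 0.41 ± 0.23 (0.892) and Col1a2 0.35 ± 0.20 (0.892). Col3a1 stood at -0.06 ± 0.21. Groups did not overlap for 5 of the 23 members (Col15a1, Col1a1, Col1a2, Col5a1 and Col8a2), all higher in anti-VSIG4 tumours, beside 10.8% of all genes that did not overlap in either direction and 5.77% that were higher.

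The make-up of the fibroblast class differed between libraries alongside these values. Sub-cluster 4, in which 13 members peaked, made up 18.3%, 13.7% and 16.7% of fibroblasts in anti-VSIG4 and 12%, 8.45% and 6.99% in IgG tumours. The mesothelial-like cells made up 6.10%, 9.29% and 27.8% in anti-VSIG4 and 10.6%, 54.2% and 46.3% in IgG tumours. The pericyte-like cells, in which 5 members peaked, made up 7.32%, 5.46% and 13.0% in anti-VSIG4 and 3.85%, 2.11% and 2.62% in IgG tumours. Another 36 and 18 of the 229 IgG 3 fibroblasts lay in the 2 sub-clusters found in that library alone. An exact two-sided permutation test gave p = 0.1 for sub-cluster 4 and for the pericyte-like cells, the smallest that 3 against 3 libraries allow, and p = 0.2 for the mesothelial-like cells (each 0.25 adjusted over 5 sub-clusters). Over sub-clusters 1, 3 and 4 alone the log2 change was 0.18 for Col1a1, 0.09 for Col1a2 and 0.15 for Col15a1, and within the universal-like cells Col15a1 stood at 0.00 ± 0.27. Within the mesothelial-like cells, left out of that fit, Col1a1 was at 7699, 6025 and 8259 CPM in anti-VSIG4 and 2757, 3930 and 5407 CPM in IgG tumours. Those groups did not overlap, from as few as 5 cells a library, and the share of all genes without overlap was not counted there. Within the universal-like cells the groups overlapped for Col1a1. Col8a2 stood at 0.53 over the 3 sub-clusters and 1.79 ± 0.53 in the universal-like cells, with no collagen called by edgeR in either fit (0.192% and 0.274% of genes called). The summed level of 9 monocyte/macrophage markers in fibroblasts was 1805, 1278 and 1584 CPM in anti-VSIG4 and 1215, 973 and 907 CPM in IgG tumours, and the groups did not overlap. The 8 pericyte and smooth-muscle markers summed to 511, 465 and 430.4 CPM in anti-VSIG4 and 429, 248 and 299 CPM in IgG fibroblasts, also with no overlap. The 7 tumour/epithelial markers summed to 222, 286 and 212 CPM in anti-VSIG4 and 290.2, 700.3 and 1319 CPM in IgG fibroblasts, lower in every anti-VSIG4 library. None of these markers was at 0. The part of these 3 lists, and that of the sub-cluster shares, in the collagen values was not tested.

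The log2 change of Col8a1 in fibroblasts took opposite signs in the 2 kinds of library. Among the libraries with many nucleus-like cells (anti-VSIG4 3 against IgG 2 and 3) it passed edgeR's test, with a log2 change of 1.20 and an adjusted p of 0.018, in a fit that called 2.06% of genes and where anti-VSIG4 3 is a lone sample assumed to vary as the IgG samples do. Among those with few (anti-VSIG4 1 and 2 against IgG 1, here the lone sample) it was -0.32, and over all 6 libraries 0.44 ± 0.34 (edgeR adjusted p = 0.914). The difference between the kinds was not tested, and with 1 library on one side of each fit a library kind and a single mouse cannot be told apart.

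**Figure D5:**
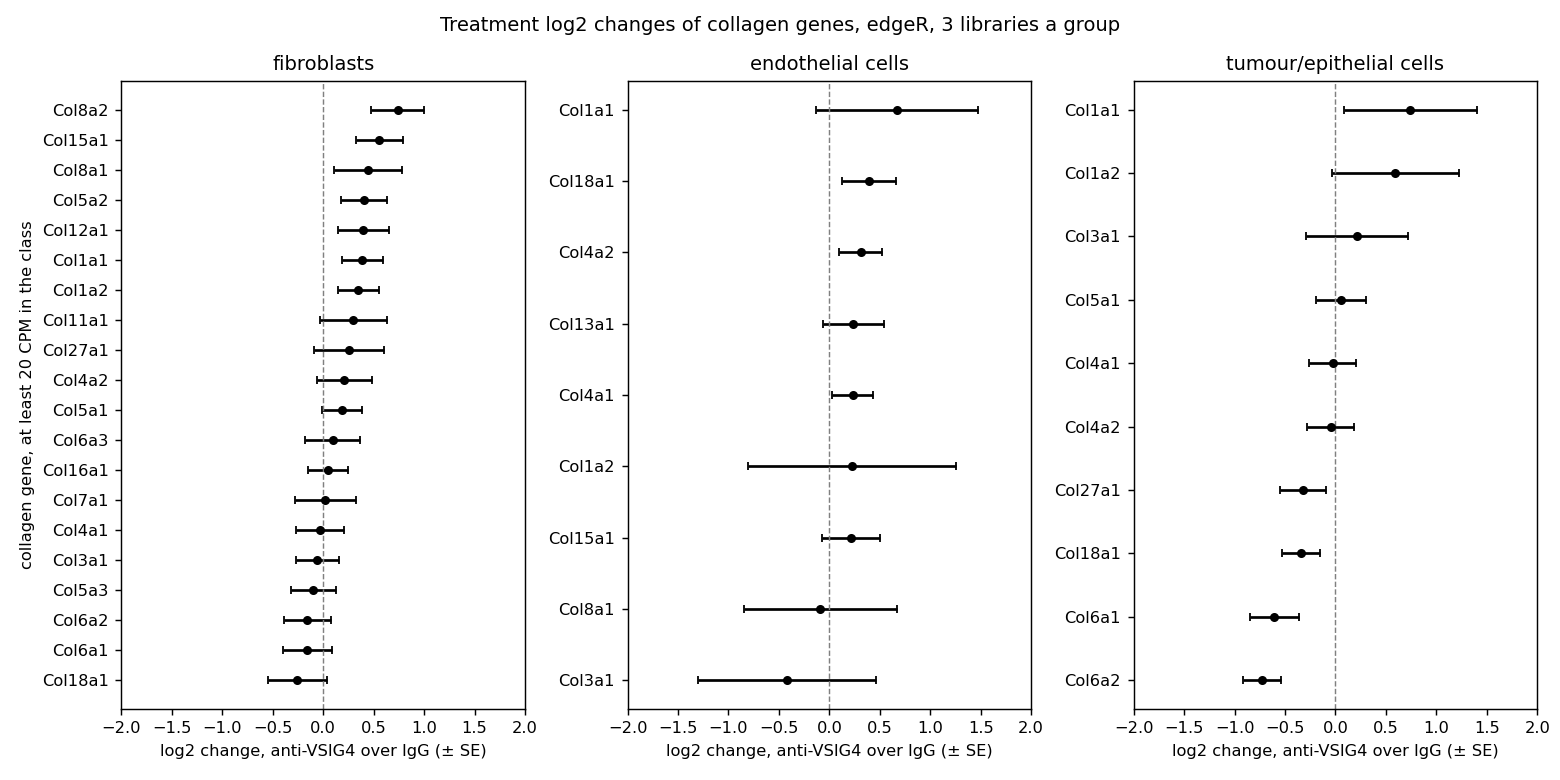
Log2 change (anti-VSIG4 over IgG, edgeR, 3 libraries a group) of collagen genes at 20 CPM or more in fibroblasts, endothelial cells and tumour/epithelial cells, with bars of 1 SE. Points for Col8a2 and Col15a1 lie farthest above 0 in fibroblasts and Col6a2 farthest below 0 in tumour/epithelial cells, and none passes the adjusted threshold.

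In endothelial cells the changes were Col18a1 0.40 ± 0.27, Col4a2 0.31 ± 0.21, Col4a1 0.23 ± 0.20, Col13a1 0.24 ± 0.30 and Col1a1 0.67 ± 0.80 on the log2 scale (SE; edgeR adjusted p = 0.994 for each). Groups did not overlap for 1 of 9 members, Col4a2, which was higher in anti-VSIG4 tumours, beside 9.76% of all genes in either direction and 6.98% that were higher. With no filter on low counts edgeR called Col5a3, Col6a2 and Col6a3 higher, at adjusted p of 0.0075, 0.011 and 0.0043, beside 0.368% of genes. Their CPM overlapped between groups: Col6a3 was at 4.29, 56.7 and 0 CPM in anti-VSIG4 and 1.93, 0 and 1.11 CPM in IgG endothelial cells, so the mean rested on anti-VSIG4 2. The 8 pericyte and smooth-muscle markers summed to 421, 401 and 61.0 CPM in anti-VSIG4 and 84.8, 21.5 and 13.3 CPM in IgG endothelial cells, with none at 0. The 9 monocyte/macrophage markers summed to 1901, 2109 and 3734 CPM in anti-VSIG4 and 963, 984 and 390.4 CPM in IgG endothelial cells, and the 9 endothelial markers to 6663, 5679 and 6066 CPM in anti-VSIG4 and 5415, 5222 and 5023 CPM in IgG endothelial cells. The groups overlapped for the pericyte and smooth-muscle list and for neither of the other lists, and the part of these lists in the collagen values, that of Col4a2 included, was not tested.

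In tumour/epithelial cells Col6a2 was at 28.2, 38.4 and 37.9 CPM in anti-VSIG4 and 50.4, 62.1 and 61.8 CPM in IgG tumours, a log2 change of -0.73 ± 0.19 (edgeR adjusted p = 0.999). Every anti-VSIG4 library was below every IgG library. Col6a1, its neighbour on chromosome 10, was at 31.5, 35.3 and 45.6 CPM in anti-VSIG4 and 40.5, 59.5 and 72.7 CPM in IgG tumours, with overlapping groups and a log2 change of -0.61 ± 0.24 (edgeR adjusted p = 0.999). Col12a1, at 3.91, 4.97 and 4.39 CPM in anti-VSIG4 and 2.64, 1.48 and 2.07 CPM in IgG tumours, had a log2 change of 1.18 ± 0.36 (edgeR adjusted p = 0.999). Its level in tumour/epithelial cells was low, at 2.69 CPM over pooled counts. That was near the median of 7 leukocyte classes, 2.05 CPM, and below the level in plasma cells. Fibroblasts held 81.6% of all Col12a1 UMIs, and where those in tumour/epithelial cells came from was not tested. Col12a1 and Col6a2 were the 2 of 20 members whose groups did not overlap, beside 7.54% of all genes in either direction, 2.76% higher and 4.78% lower. Changes were -0.34 ± 0.19 for Col18a1, -0.32 ± 0.23 for Col27a1 and 0.74 ± 0.66 for Col1a1, whose level here is near that of T cells. The difference of Col6a2 was -0.64 in either kind of library, and no member passed in either.

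In monocyte/macrophages Col4a1 was at 22.0, 28.5 and 16.4 CPM in anti-VSIG4 and 21.2, 12.4 and 10.6 CPM in IgG tumours, a log2 change of 0.58 ± 0.24 (edgeR adjusted p = 0.999). None of 21 members had groups that did not overlap, beside 7.62% of all genes. In the sum of all cells Col27a1 and Col18a1 stood at -0.67 ± 0.28 and -0.65 ± 0.27 (edgeR adjusted p = 0.600 for both), where fewer cells of a type and less RNA per cell cannot be told apart. Col7a1 and Col9a3, both lower in anti-VSIG4 tumours, were the 2 of 34 members whose groups did not overlap, beside 14.6% of all genes that did not overlap and 12.5% that were lower. Fibroblasts were 0.864%, 2.82% and 0.797% of kept cells in anti-VSIG4 and 2.91%, 1.74% and 2.40% in IgG tumours (exact two-sided permutation p = 0.3). Without nucleus-like cells they were 0.867%, 2.83% and 0.841% in anti-VSIG4 and 2.92%, 2.06% and 4.05% in IgG tumours (exact two-sided permutation p = 0.2).

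Genes that process or hold collagen were read from the same fits, and none of them passed in fibroblasts. Of 18 tested genes for collagen folding and modification 13 were above 0, with a median log2 change of 0.05. P4ha3, a prolyl hydroxylase subunit, had the smallest p, at 0.94 ± 0.33 (edgeR adjusted p = 0.707), and Serpinh1, the collagen chaperone, stood at 0.16. Of 11 trimming and cross-linking genes 5 were above 0 (median -0.10), with Pcolce2, an enhancer of procollagen trimming, at -1.48 ± 0.36 (edgeR adjusted p = 0.410). Of 12 fibril partners 7 were above 0 (median 0.11), with Dpt at -1.43 ± 0.27 (edgeR adjusted p = 0.306), Tnxb, a tenascin that binds fibrils, at -2.17 and Thbs2 at 0.85. Of 7 receptors 4 were above 0 (median 0.15), with the collagen receptor kinase Ddr2 at -0.97 ± 0.28 (edgeR adjusted p = 0.576), and of 12 basement-membrane partners 6 were above 0 (median -0.02), with the laminin chain Lama1 at 0.81 ± 0.28 (edgeR adjusted p = 0.707). The median over all genes was 0.01. In the other 4 sets of cells edgeR called none of the tested genes of these lists. Of 10 basement-membrane partners tested in endothelial cells 8 were above 0, with a median of 0.48 against -0.02 over all genes. The smallest edgeR adjusted p among them was 0.655. Of 10 tested in tumour/epithelial cells 2 were above 0, with a median of -0.14 against -0.01 over all genes. No test was made over a list.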

How the data were processed

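For each library the authors deposited a matrix of raw UMI counts, made with PISA 1.0 per the file headers. The submitters' processing notes name STAR and Seurat 4.11 without their steps. Genome build, annotation and settings were not given in the sources used here. All barcodes held at least 1000 UMIs.

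The members and lists were chosen with earlier results of these data known. The name rule left out 1 gene of the family, which is not reported here. Cells were kept with at least 500 UMIs, 300 genes and at most 20% mitochondrial UMIs. Scrublet marked 0 cells and was taken not to have worked, so leaving out the top-scoring 6% was an alternative. Python 3.11.15, scanpy 1.11.5 and leidenalg 0.10.2 were used for clustering at resolution 1.0 on 3000 variable genes, 40 components and 20 neighbours, without the collagen genes. Clustering with them left 897 of 898 fibroblasts in that class. Sub-clusters used 2000 genes, 20 components, 15 neighbours and resolution 0.4.

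Counts were summed per library and class and tested with edgeR 4.0.16 (TMM, low-count filter, robust quasi-likelihood) in R 4.3.3, with DESeq2 1.42.0 as an alternative, a threshold of 0.05 and 3 libraries a group. Standard errors are the size of the log2 change divided by the square root of edgeR's F statistic. The labels name separate mice. Scripts were tested on simulated data. Members averaging 100 CPM or more in fibroblasts, endothelial or tumour/epithelial cells are given per library, except Col16a1, which is given as a range. Where no member passed in these classes, the 5 of smallest p at 20 CPM or more are named. In monocyte/macrophages and the sum of all cells only some of them are given with their changes. Up to 4 genes of each pathway list are named. Other members, such as Col12a1 in tumour/epithelial cells and Col4a1 in monocyte/macrophages, were named after their values were seen. Shares of cells were compared by exact permutation and, across depths, after thinning to 1000 UMIs. Samples within a class have few cells (41 to 110 endothelial and 54 to 229 fibroblasts a library), which limits precision, and count intervals would cover counting error only.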

Additional observations from a re-analysis of the deposited data

How the results depend on the processing

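Of 754 values under other settings, 693 stayed the same by the rule for their kind, 43 moved and 18 changed direction. Log2 changes and shares of cells had to keep their direction and side of the threshold. Counts of called genes had to be equal or within 1.5-fold. Levels, shares of UMIs and ratios had to stay within 1 SD over libraries of the main mean. No collagen gene was called in 78 of 80 fits. The exceptions were 1 member in fibroblasts of libraries with many nucleus-like cells and 3 in endothelial cells with no low-count filter, both described above. None of 26 named collagen changes passed in 414 alternatives. Counts of all genes called moved more. In fibroblasts (0) they were 40 with DESeq2, 169 with no filter, 32 with the replicate block, 12 with library kind as a covariate, 77 and 220 in libraries with few and many nucleus-like cells, 14 over sub-clusters 1, 3 and 4 and 16 in universal-like cells. In endothelial cells (1) they were 5 with DESeq2, 67 with no filter, 7 with the block, 8 and 2 in the kinds, and 0 without likely doublets or with cells of at least 2000 UMIs. In tumour/epithelial cells (0) they were 5, 50 and 1 in the same order, then 7 and 109 in the kinds. In monocyte/macrophages (0) they were 23, 106 and 2, then 4 with the covariate, 40 and 315 in the kinds. In the sum of all cells (0) they were 13 with DESeq2, 5 and 37 in the kinds. Leaving out 1 library gave 0 to 7 in fibroblasts, 0 to 2 in endothelial cells, 0 to 3 in tumour/epithelial cells, 0 to 22 in monocyte/macrophages and 0 to 135 in all cells. The highest values came without IgG 1 in each but endothelial cells, where they came without IgG 2 or anti-VSIG4 3. The cause was not tested.

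Changes of direction on the log2 scale were the following. In libraries with many nucleus-like cells these were Col27a1 in tumour/epithelial cells (0.0801), Col1a1 and Col1a2 in monocyte/macrophages (-0.25 and -0.45) and Col15a1 in all cells (-0.0636). In monocyte/macrophages Col1a2 was -0.087 with the covariate and Col3a1 0.0001 with no filter. Without 1 library the log2 change of Col1a1 ranged from -0.28 to 1.29 in endothelial, -0.13 to 1.43 in tumour/epithelial cells and -0.25 to 0.97 in monocyte/macrophages, with the lowest value in each without anti-VSIG4 2. Col1a2 ranged from -0.41 to 0.71 and Col3a1 from -0.51 to 0.41 in monocyte/macrophages. In all cells Col3a1 ranged from -0.63 to 0.20 and Col15a1 from -0.13 to 0.46. The share of fibroblasts in sub-cluster 1 (anti-VSIG4 minus IgG) ranged from -3.03 to 23.2 percentage points. Whether replicate numbers pair the libraries is not settled here. Same-numbered fibroblast libraries correlated at 0.28, -0.02 and 0.25 in their deviations from group means, and differently numbered ones at -0.33 to 0.14. The replicate block called no collagen gene. Sub-cluster settings, the fits on sub-clusters and the fit without a small tumour cluster were chosen after the data were seen. Rare members, under 100 UMIs in all cells, could not be compared at this depth.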

Other observations

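Some collagen RNAs stood above the T cell level in leukocytes. Col15a1 was at 13.2, 17.6 and 20.8 CPM in neutrophils of anti-VSIG4 tumours and at 20.7, 29.8 and 25.4 CPM in those of IgG tumours, above T cells in all 6 libraries. It was 5.04-fold higher in neutrophils, over pooled counts, than in the median of 7 leukocyte classes. After thinning, 1.90% of neutrophils and 0.429% of T cells held a Col15a1 UMI (3.14% and 1.69% before thinning, at medians of 1574 and 3032 UMIs). Col27a1 was at 15.8, 29.0 and 24.8 CPM in migratory dendritic cells of anti-VSIG4 tumours and at 26.9, 23.6 and 46.4 CPM in those of IgG tumours, from 88 UMIs in all, above T cells in all 6 libraries. In type 2 conventional dendritic cells it averaged 1.76 CPM. A UMI of Col27a1 was held by 3.48% of migratory dendritic cells and 0.114% of T cells after thinning.

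The tumour/epithelial class joined a main cluster of 2579 cells and a small cluster of 67 cells led by Lcn2, Clu, Cp and Ambp. Pooled over libraries, Col9a3, a FACIT chain best known from cartilage, was at 42.0 CPM in the small cluster and 0.407 CPM in the main one. Of the type VI chains, Col6a1 was at 11.1 CPM in the small cluster, from 5 UMIs, and 56.0 CPM in the main one, and Col6a2 was at 4.42 CPM, from 2 UMIs, and 52.8 CPM. Col6a3 was at 2.21 CPM in the small cluster and 2.44 CPM in the main one, and Col6a6 at 11.1 and 6.82 CPM. These genes were chosen after their values were seen, and no test was made.

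Within the mesothelial-like fibroblast sub-cluster Col15a1 was at 214, 217 and 238 CPM in anti-VSIG4 and at 17.9, 22.3 and 135 CPM in IgG tumours, from 5, 17 and 15 cells in anti-VSIG4 and 22, 77 and 106 cells in IgG tumours. In sub-cluster 4 it was at 729.6, 809.9 and 455 CPM in anti-VSIG4 and 569, 492 and 454 CPM in IgG tumours. The mesothelial-like values rest on 284 Col15a1 UMIs in all. The share of all genes without overlap was not counted in either sub-cluster, so no group difference is read. Both sub-clusters were picked after their values were seen, and no test was made.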
